A study of Mus musculus with 21 samples.

Results

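Interferon-stimulated genes are the set of genes that cells switch on in answer to interferon. The 44 described here were listed by symbol and not by their values, and all 44 were found among the 30519 genes of the count table. They were followed through 21 low-input RNA-seq libraries from mouse bone marrow, made from sorted hematopoietic stem cells (HSC) or from sorted MEP, the megakaryocyte-erythroid progenitors from which platelets and red cells descend. The Etv6 genotypes were wild type (WT), P216L, S211I, and S211I with P216L (double). There were 3 HSC libraries each of WT, P216L and double, 2 of HSC S211I, 3 MEP libraries each of P216L and double, and 2 each of MEP WT and MEP S211I. Etv6 encodes a repressor of the ETS family of transcription factors. The genotype field of the labels writes P211I where the titles write S211I, and the title form is used. The labels used here give no age, strain background or zygosity. They also leave unsaid which libraries came from separate animals, and p-values therefore reflect only how these samples vary, which may be technical.

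Type I interferons bind the receptor made of Ifnar1 and Ifnar2, whose kinases Jak1 and Tyk2 phosphorylate Stat2. Stat2 and Irf9 are parts of the complex ISGF3, which binds the interferon-stimulated response element (ISRE) in promoters, while interferon gamma acts mainly through the gamma-activated site (GAS). Members of the set code for transcription factors that carry the signal on (Irf1, Irf7, Irf9, Stat2), the ubiquitin-like protein Isg15 and its controls, sensors and destroyers of viral RNA, membrane proteins that block viral entry or release, and GTPases that attack parasites and bacteria. Stem cells are known to keep some of these genes on without infection, and interferon is known to act on HSC in bone marrow.

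Levels are given in CPM, the count scaled to a library total of 1000000. The total was 151216 to 2250654 estimated counts in 10 HSC libraries and 3387389 to 12130358 in the 10 MEP libraries. The library labelled HSC S211I replicate 2 stood apart, with 13154016 counts. Its log CPM profile correlated with the MEP mean across genes at r = 0.9916, against 0.5611 to 0.8595 in the other HSC libraries, and genes are not independent replicates. Its summed CPM over 12 HSC markers was 241, against 1330.4 to 5912 in the other HSC libraries and 86.9 to 143 in MEP. Over 12 MEP and erythroid markers the sum was 3231 to 25120.4 CPM in the 10 HSC libraries and 21616 to 26026 in MEP, so the HSC libraries differed widely among themselves. It counts as 1 of the 2 HSC S211I libraries in every test, count and standard error given for HSC S211I below, and it shared in the estimate of spread of the other HSC comparisons. Its values are named apart, and for HSC S211I the counts of members by the edgeR test and the bounds are given with and without it. Other counts for HSC S211I are given with it only.

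Of the 44 members, 35 had a promoter window in the RefSeq table of GRCm38.p6, which covers 250 bases before to 50 after each transcription start. The ISRE core, searched on either strand as GAAA followed by any 2 bases and GAAA again, stood in 18 of 35 members (51.4%) and in 1079 of all 27025 genes with a window (3.99%). The GAS letters TTCNNNGAA, which read the same way on both strands, stood in 10 of 35 members (28.6%) and in 9.55% of all genes. An ETS site, searched as CCGGAAGT on either strand, stood in 2 of 35 (5.71%, Ifih1 and Ifit2) and in 4.31% of all genes. A match describes these letters only, and matches of different motifs were allowed to overlap. The windows below belong to members that the comparisons turn on. Ifitm2 and Ifitm3 are similar restriction factors that gave different results between cell types, Irf1 carries a GAS match and none of the ISRE, and Isg15 and Gbp3 show the ISRE in either orientation. The ISRE letters begin 78 bases before the start in Isg15, 45 in Gbp3, 46 in Ifitm2 and just past it in Ifitm3, and the GAS letters of Irf1 begin 90 bases before. Capitals mark the ISRE letters, or in Irf1 the GAS letters, and each sequence is on the strand of its gene. In Ifitm3 the last 3 capitals begin a second ISRE match. The end of that window also reads as the GAS letters, which are not marked there.
Isg15, chr4:156200862-156200921, minus strand: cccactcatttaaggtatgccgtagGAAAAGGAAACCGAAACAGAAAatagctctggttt
Gbp3, chr3:142559974-142560033, plus strand: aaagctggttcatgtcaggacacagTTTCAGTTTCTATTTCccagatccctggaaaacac
Ifitm2, chr7:140955973-140956032, minus strand: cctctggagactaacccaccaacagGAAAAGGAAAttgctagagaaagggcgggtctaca
Ifitm3, chr7:141010723-141010752, minus strand: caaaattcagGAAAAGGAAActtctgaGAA
Irf1, chr11:53769899-53769957, plus strand: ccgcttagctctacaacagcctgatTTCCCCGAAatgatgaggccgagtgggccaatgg
Of the 6 members that were lower in MEP by the test given below, Ifitm3 alone held the ISRE letters in its window, and Ifitm1, Oasl2, Dtx3l, Ifi44 and Irf1 did not.

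The members were seen in most MEP libraries and unevenly in HSC. In each MEP library 38 to 43 of the 44 were above 0, and 35 members were above 0 in all 10. In the 10 HSC libraries 16 to 36 members were above 0, only 6 members were above 0 in all 10, and 15 were at 0 in at least 5 of 10. Of all genes, 3988 to 10280 were above 0 in these HSC libraries and 12723 to 15914 in MEP. Lower detection in HSC was thus not particular to the members. The library labelled HSC S211I replicate 2 had 43 members above 0, and 33 of the 44 lay within the range of the MEP libraries. The coefficient of variation of the members had a median of 134.8% over the 9 HSC libraries of WT, P216L and double. It was 30% over the 8 MEP libraries of those genotypes, and the median over all genes was not computed. The summed level of the 44 genes was 2055 to 5839.6 CPM in the 10 HSC libraries, 1072 to 1587 in MEP and 1438 in the library labelled HSC S211I replicate 2. So every one of those 10 HSC libraries summed above every MEP library, with fewer members above 0. After each library was thinned to 151215 counts, the 10 HSC libraries kept 16 to 34 members above 0 with 305 to 897 summed counts, and the MEP libraries 26 to 32 with 153 to 248. Of all genes, 3717 to 8508 then stayed above 0 in these HSC libraries and 9025 to 9346 in MEP. In such bulk samples fewer cells of a type and less RNA per cell cannot be told apart.

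**Figure D1:**
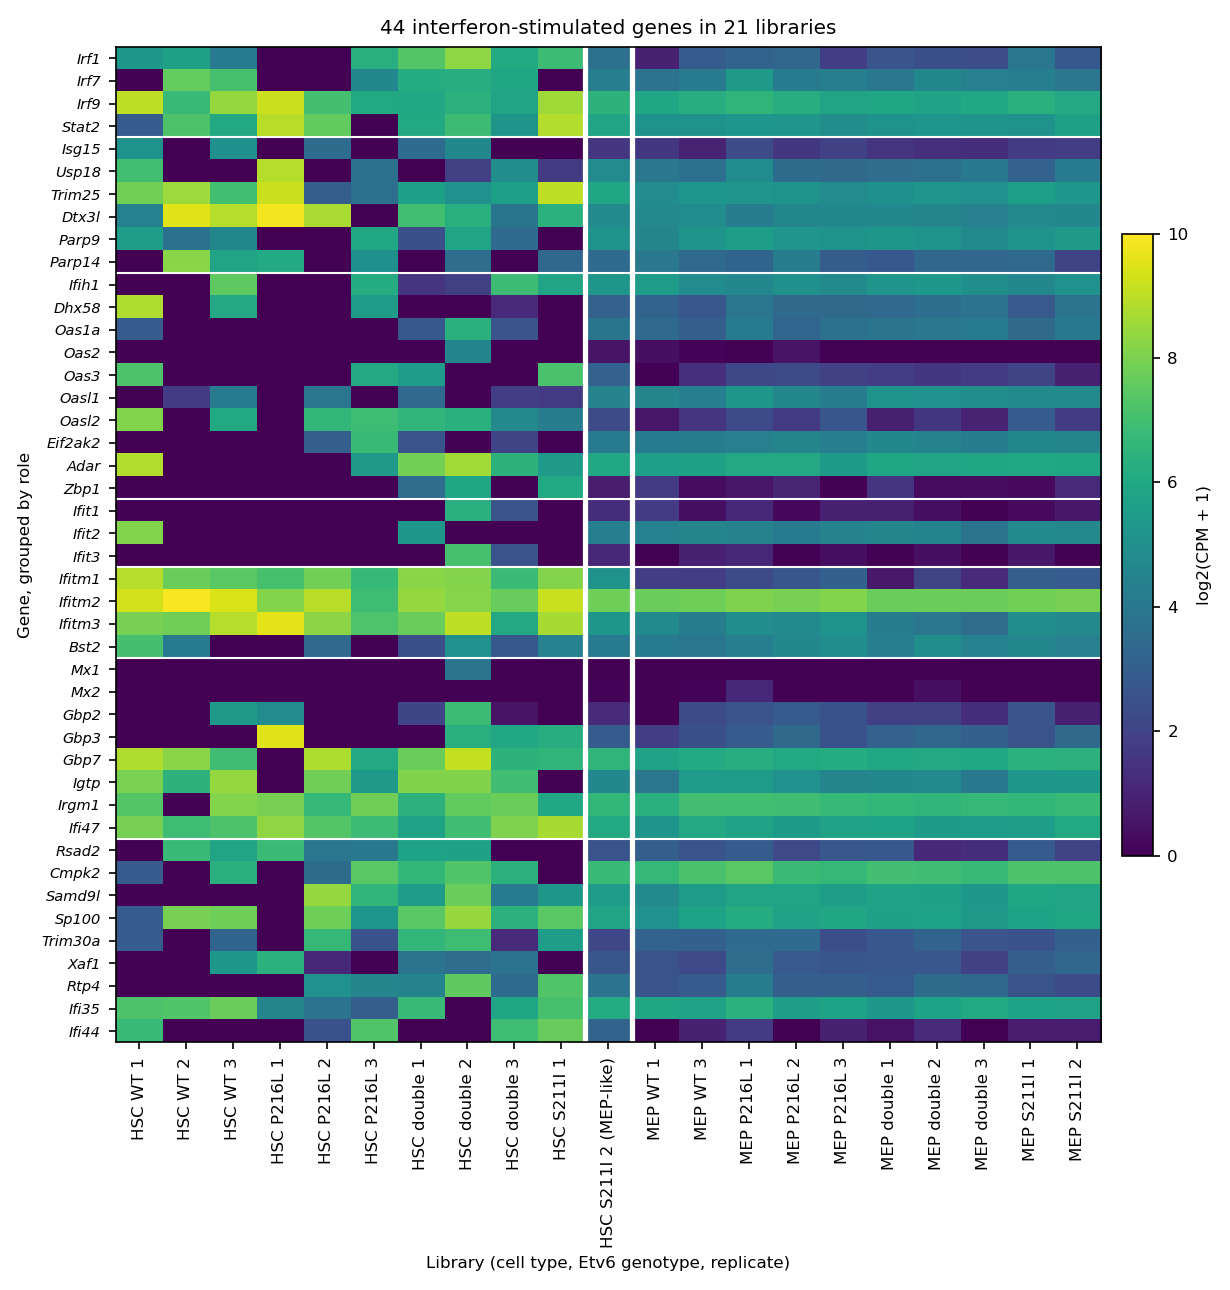
Level of each of the 44 interferon-stimulated genes, as log2(CPM + 1), in 21 libraries, with genes as rows grouped by role and libraries as columns. The MEP columns are even, with 35 members above 0 in all 10, while the HSC columns alternate between high values and 0, and the library labelled HSC S211I replicate 2, set apart, has 43 members above 0.

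MEP were compared with HSC as the mean of the differences in WT, P216L and double, over 8 MEP and 9 HSC libraries. Of the 41 members tested, 6 were lower in MEP, namely Ifitm1, Ifitm3, Oasl2, Dtx3l, Ifi44 and Irf1, and 1 was higher, Oas1a. The test was edgeR's quasi-likelihood test with Benjamini-Hochberg adjustment over all 12036 genes at 0.05. In that comparison 22.2% of all genes were called, 6% lower and 16.2% higher, so the members called lower were 14.6% of those tested. The median log2 fold change of the members was -0.70 and that of all genes 0.73, and 26 of 41 members were negative where 66.8% of all genes were positive. With scaling by relative log expression (RLE) factors the median of all genes was 0.31 and that of the members -1.17. With voom, a fit that also weights the libraries, they were 1.24 and -0.27. With RLE the members called split into 0 higher and 9 lower, and all genes into 1216 higher and 880 lower, against 1946 and 722 as first fitted. With voom 13 members were called, 8 higher and 5 lower, where 44.1% of all genes were, 4180 higher and 1129 lower. DESeq2 called 16, 3 higher and 13 lower, where 26.5% of all genes were called, 1823 higher and 1365 lower.

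**Figure D2:**
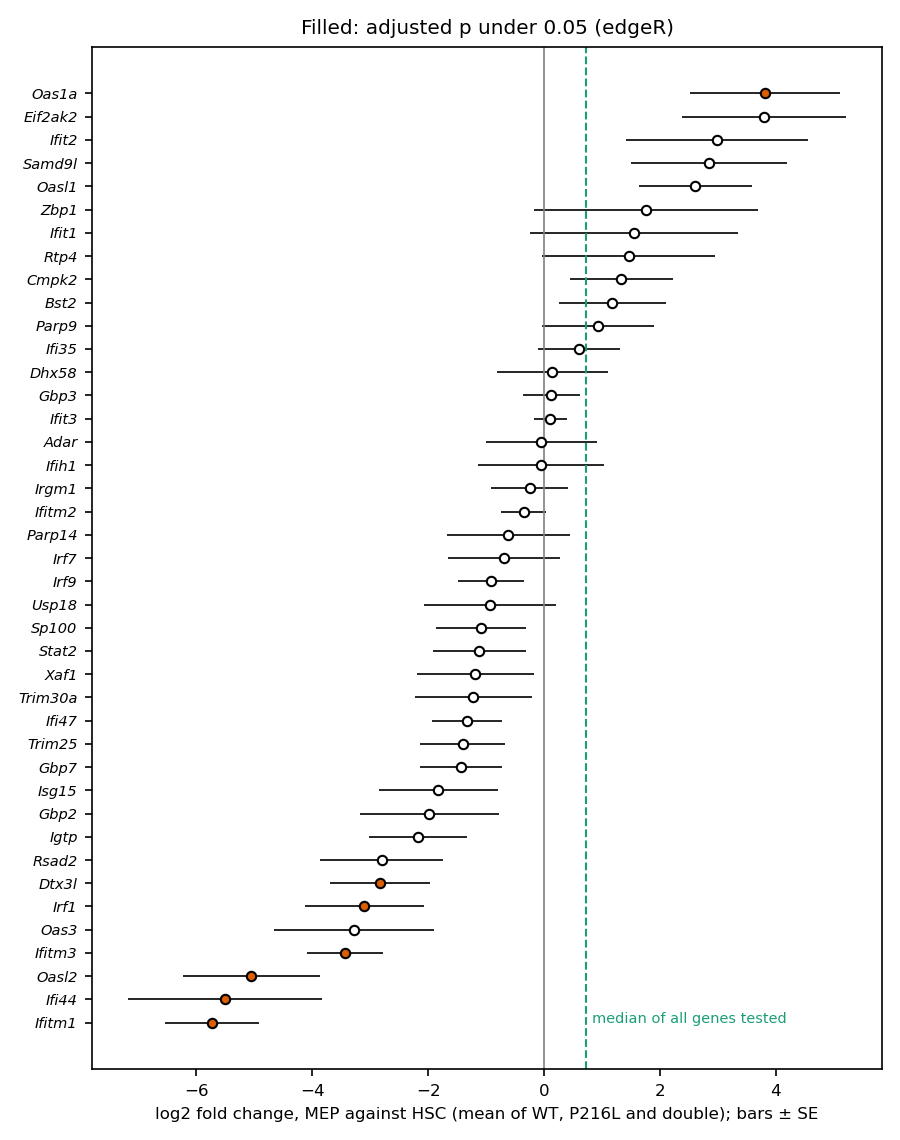
log2 fold change of MEP against HSC (mean of WT, P216L and double) for the 41 members tested, with bars of 1 SE and filled points for adjusted p under 0.05 by edgeR. The dashed line is the median of all genes tested, 0.73, and 6 of the 7 filled points lie left of 0, the farthest being Ifitm1 at -5.73.

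Of the 4 membrane restriction factors, Ifitm1 and Ifitm3 were lower in MEP, and Ifitm2 and Bst2 did not pass. Ifitm1, which hinders the entry of enveloped viruses at the cell surface, measured 0.624 to 7.68 CPM (median 2.85) in the 8 MEP libraries and 102 to 469.5 CPM (median 217) in the 9 HSC libraries. No MEP library reached the lowest HSC library. The log2 fold change was -5.73 ± 0.82 (SE), adjusted p = 6.60e-05. Ifitm3, its relative in endosomes, measured 10.96 to 33.9 CPM (median 22.02) in the 8 MEP libraries and 64.9 to 766 CPM (median 245) in the 9 HSC libraries, again without overlap, with a log2 fold change of -3.43 ± 0.65 (SE), adjusted p = 0.00107. Across all genes 1.01% had every MEP library below every HSC library, and these were the only members that did. Both passed under all 25 alternative fits, with log2 fold changes of -6.25 to -5.49 for Ifitm1 and -3.98 to -3.09 for Ifitm3.

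Ifitm2, the third of this gene cluster, did not follow them. It measured 206 to 285 CPM (median 217) in the 8 MEP libraries and 116 to 953 CPM (median 341) in the 9 HSC libraries, the groups overlapped, and the log2 fold change of -0.35 ± 0.39 (SE) did not pass (adjusted p = 0.588). In HSC S211I replicate 1 Ifitm1, Ifitm2 and Ifitm3 were at 281, 570.1 and 407 CPM, within the range of the 9 other HSC libraries for each. In the library labelled HSC S211I replicate 2 they were at 34.3, 221 and 38.4 CPM. Ifitm1 and Ifitm3 there lay between the MEP and the HSC ranges, and Ifitm2 within both. The 3 genes are similar in sequence, so estimated counts could be shared among them. Bst2, or tetherin, which holds budding virus at the membrane, measured 14.3 to 29.8 CPM (median 19.7) in the 8 MEP libraries and 0 to 132 CPM (median 5.78) in the 9 HSC libraries, with a log2 fold change of 1.18 ± 0.93 (SE), adjusted p = 0.406.

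**Figure D3:**
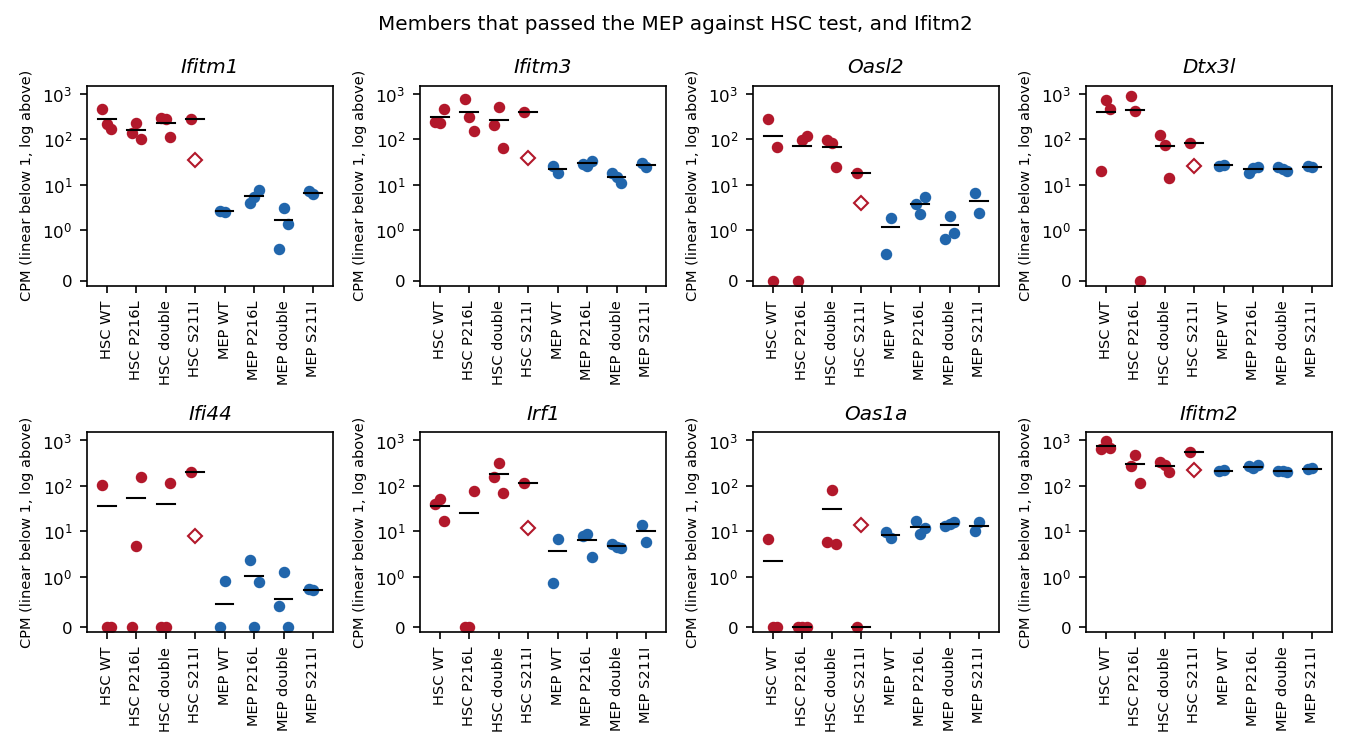
CPM in each library, on a scale linear below 1 and logarithmic above, for the 7 members that passed in MEP against HSC and for Ifitm2, by cell type and genotype, with lines at group means and an open diamond for the library labelled HSC S211I replicate 2, which is left out of the means. Ifitm1 and Ifitm3 separate the cell types without overlap, Oasl2, Dtx3l, Ifi44 and Irf1 have HSC libraries at 0, and Oas1a is at 0 in all 3 HSC P216L libraries.

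Among genes that sense or destroy viral RNA, Oasl2, an oligoadenylate synthetase-like protein, was lower in MEP. It measured 0.519 to 5.31 CPM (median 1.95) in the 8 MEP libraries and 0 to 284 CPM (median 81.2) in the 9 HSC libraries, with a log2 fold change of -5.05 ± 1.18 (SE), adjusted p = 0.00458. The groups overlapped, since HSC WT replicate 2 and HSC P216L replicate 1 were at 0. The call held in 24 of 25 alternatives and was lost without MEP WT replicate 1.

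Oas1a, which makes the short adenylate chains that activate ribonuclease L and has close copies in the mouse genome, was the one member called higher. It measured 7.06 to 17.1 CPM (median 12.6) in the 8 MEP libraries and 0 to 81.2 CPM (median 0) in the 9 HSC libraries, with a log2 fold change of 3.81 ± 1.29 (SE), adjusted p = 0.0357, although the means of 12.2 and 10.99 CPM were close. All 3 HSC P216L libraries were at 0, and the comparison averages the 3 genotypes. With cell type alone in the model, a setting added after the data were seen, the log2 fold change was 0.43 (adjusted p = 0.885), and the call was also lost with RLE, without the low-count filter and when any 1 of the 8 MEP libraries was left out. Its relative Oasl1 had every MEP library above every HSC library, as 4.4% of all genes did. It measured 18.01 to 38.6 CPM (median 26.8) in the 8 MEP libraries and 0 to 16.7 CPM (median 2.44) in the 9 HSC libraries, and the log2 fold change of 2.61 ± 0.97 (SE) did not pass (adjusted p = 0.0537).

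The other members of this group had wide spreads in HSC. Eif2ak2, the kinase PKR that halts translation on double-stranded RNA, measured 16.3 to 23.5 CPM (median 19.1) in the 8 MEP libraries and 0 to 107 CPM (median 0) in the 9 HSC libraries. It was at 0 in 5 of those 9 HSC libraries, and the log2 fold change was 3.80 ± 1.41 (SE), adjusted p = 0.0545. Adar, the enzyme that edits adenosine in double-stranded RNA, measured 42.2 to 64.5 CPM (median 57.5) in the 8 MEP libraries and 0 to 463 CPM (median 39.99) in the 9 HSC libraries, with a log2 fold change of -0.05 ± 0.96 (SE), adjusted p = 1. Its sign turned in 10 of 25 alternatives, so no direction is given. Of the sensors, Ifih1 (MDA5) measured 23.95 to 43.7 CPM (median 31.2) in the 8 MEP libraries and 0 to 183 CPM (median 1.92) in the 9 HSC libraries, and its log2 fold change was -0.06 ± 1.09 (SE), adjusted p = 1.

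In the group of ubiquitin-like genes, Dtx3l, a ubiquitin ligase that works with Parp9, was lower in MEP. It measured 18.1 to 27.9 CPM (median 23.8) in the 8 MEP libraries and 0 to 909 CPM (median 124) in the 9 HSC libraries, with a log2 fold change of -2.84 ± 0.86 (SE), adjusted p = 0.0201. HSC P216L replicate 3 at 0 and HSC double replicate 3 at 13.8 CPM lay below every MEP library, and HSC WT replicate 1 at 19.8 CPM lay within their range. The call held in 22 of 25 alternatives and was lost without MEP WT replicate 1, without MEP WT replicate 3 and with voom. Parp9 itself measured 22.7 to 46.4 CPM (median 34.5) in the 8 MEP libraries and 0 to 61.2 CPM (median 12.2) in the 9 HSC libraries and did not pass (log2 fold change 0.93 ± 0.97 (SE), adjusted p = 0.56).

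Isg15, a ubiquitin-like protein that is joined to other proteins, and its protease did not pass. Isg15 measured 0.989 to 3.91 CPM (median 1.97) in the 8 MEP libraries and 0 to 33.1 CPM (median 10.3) in the 9 HSC libraries, with 4 of those HSC libraries at 0, and the log2 fold change was -1.82 ± 1.03 (SE), adjusted p = 0.214. Usp18, which removes Isg15 and dampens receptor signalling, measured 10.04 to 27.7 CPM (median 11.6) in the 8 MEP libraries and 0 to 468 CPM (median 2.71) in the 9 HSC libraries, with a log2 fold change of -0.94 ± 1.14 (SE), adjusted p = 0.633 whose sign turned in 4 of 25 alternatives.

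Among the transcription factors Irf1 alone was lower in MEP by the test. It measured 0.864 to 8.76 CPM (median 4.85) in the 8 MEP libraries and 0 to 313 CPM (median 51.2) in the 9 HSC libraries, with a log2 fold change of -3.10 ± 1.03 (SE), adjusted p = 0.0309. HSC P216L replicates 1 and 2 were at 0 and every other HSC library of the 9 lay above the MEP range, so the overlap came from those. The call was lost when any 1 of the 8 MEP libraries was left out, and the value was 0.18 without HSC P216L replicate 3, when that genotype was at 0 throughout. With cell type alone in the model it was -3.79 ± 1.05 (SE), adjusted p = 0.0265.

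Irf7, the amplifier of type I interferon production, measured 12.9 to 40.5 CPM (median 18) in the 8 MEP libraries and 0 to 197 CPM (median 59.5) in the 9 HSC libraries, with a log2 fold change of -0.70 ± 0.97 (SE), adjusted p = 0.691. Its sign turned in 2 alternatives. Irf9, the DNA-binding subunit of ISGF3, measured 53.4 to 91.02 CPM (median 59.2) in the 8 MEP libraries and 55.5 to 581 CPM (median 109.7) in the 9 HSC libraries, with a log2 fold change of -0.91 ± 0.57 (SE), adjusted p = 0.273. Stat2, its partner, measured 29.5 to 37.5 CPM (median 34.6) in the 8 MEP libraries and 0 to 490.1 CPM (median 66.6) in the 9 HSC libraries, with a log2 fold change of -1.11 ± 0.80 (SE), adjusted p = 0.353, and its sign turned with voom. The HSC and MEP ranges overlapped for all 3.

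Ifi44, an interferon-induced protein, was the last member lower in MEP, with near absence there. It measured 0 to 2.27 CPM (median 0.651) in the 8 MEP libraries and 0 to 156 CPM (median 0) in the 9 HSC libraries, with 3 MEP and 5 HSC libraries at 0 and a log2 fold change of -5.50 ± 1.67 (SE), adjusted p = 0.0202. The call held in 18 of 24 alternatives and was lost without MEP WT replicate 1 or 3, HSC WT replicate 1 or HSC double replicate 3, and with DESeq2 or voom. Sp100, a component of nuclear bodies, measured 32.6 to 72.7 CPM (median 53.6) in the 8 MEP libraries and 0 to 349 CPM (median 172) in the 9 HSC libraries and did not pass (log2 fold change -1.08 ± 0.78 (SE), adjusted p = 0.351).

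None of the GTPases passed in this fit, though 4 did in others. Igtp and Irgm1, immunity-related GTPases that act on the vacuoles of parasites, measured 14.7 to 44.4 CPM (median 25.1) and 81.3 to 128 CPM (median 102) in MEP, and 0 to 339 CPM (median 224) and 0 to 283 CPM (median 192) in HSC. Igtp had a log2 fold change of -2.18 ± 0.84 (SE), adjusted p = 0.0634, and it passed at -2.48 ± 0.72 (SE), adjusted p = 0.0388, with cell type alone in the model. Igtp passed as well with RLE, DESeq2, voom and thinning, and without HSC P216L replicate 1 or replicate 3. Ifi47 passed with RLE and DESeq2, Gbp7 with DESeq2 and without HSC P216L replicate 1, and Gbp3 with DESeq2. Mx1, the classical marker of type I interferon action, was at 0 in all 10 MEP libraries and above 0 in HSC double replicate 2 alone, at 13.5 CPM. Mx2 was at 0 in all 10 of the HSC libraries other than the one labelled S211I replicate 2 and at most 1.13 CPM in MEP.

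Markers of other cell types reached higher sums in HSC libraries too, beside the 6 members called lower in MEP. The summed CPM of 8 monocyte markers was 0 to 236 in the 10 HSC libraries and 2.70 to 12 in MEP, with Csf1r at 0 in all 10 HSC libraries. It was 61.1 to 4331 and 2.94 to 159 for 8 neutrophil markers. For 5 T and NK cell markers, with Cd3d at 0 in all 10 HSC libraries, it was 0 to 823 and 5.54 to 20.1. For 6 plasmacytoid and dendritic cell markers it was 56.6 to 641 and 59.8 to 105. For 6 B cell markers, with Vpreb1 at 0 in all 10 HSC libraries, it was 0 to 244 and 6.66 to 26.1. For 6 endothelial and stromal markers it was 24.7 to 3813 and 0.541 to 15.3. The largest of these last sums were nearly all the stromal gene Col1a1, at 3813 CPM in HSC P216L replicate 1 and 1482 in HSC double replicate 3. The endothelial genes Cdh5 and Kdr were at 0 in both. The part of these markers in the result was not tested, and the HSC libraries were also the shallower ones.

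Within WT alone, 2 MEP and 3 HSC libraries, 2 of 41 members passed where 4.1% of all genes did. DESeq2 called 9 where it called 17.9% of all genes, and voom 2 where it called 15.5%. Ifitm1 was at 2.59 and 2.56 CPM in MEP WT and 469.5, 217 and 171 in HSC WT, with a log2 fold change of -6.01 ± 1.52 (SE), adjusted p = 0.0258. Samd9l, a restriction factor of poxviruses, was at 25.6 and 44.9 CPM in MEP WT and at 0 in all 3 HSC WT libraries. Against a floor of 3 counts over the HSC WT group it was at least 12.2-fold higher in MEP (edgeR adjusted p = 0.0494). The Samd9l call was lost without any 1 of the 5 libraries, and the Ifitm1 call without either MEP WT library.

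The genes that make, receive and relay the signal were read from a list of 50 interferon pathway genes that are not members, of which 34 were tested. In MEP against HSC 7 of the 34 passed (20.6%), where 22.2% of all genes did. The calls among all genes were mostly upward, with 6% lower in MEP and 16.2% higher. Of the 6 described here, Trex1, Sting1, Irf5, Ptpn6 and Irf2 were lower, and Cgas was higher. Most of them thus ran against the main direction of all genes. Trex1, the nuclease that clears cytosolic DNA, measured 0 to 2.86 CPM (median 0) in the 8 MEP libraries and 0 to 178 CPM (median 29.1) in the 9 HSC libraries and passed (edgeR adjusted p = 0.00335). Both MEP WT libraries were at 0 for it, so no fold is given. Sting1, the adaptor of DNA sensing, had a log2 fold change of -5.42 ± 1.36 (SE), adjusted p = 0.00649, and Irf5, a factor that drives inflammatory genes, of -4.99 ± 1.28 (SE), adjusted p = 0.00771. Ptpn6, a phosphatase that restrains cytokine receptors, had a log2 fold change of -1.15 ± 0.37 (SE), adjusted p = 0.0266, and Irf2, a repressor of ISRE genes, of -1.99 ± 0.71 (SE), adjusted p = 0.0442.

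Cgas, the DNA sensor upstream of Sting1, was the one higher in MEP. It measured 7.28 to 18.1 CPM (median 10.3) in the 8 MEP libraries and 0 to 1.19 CPM (median 0) in the 9 HSC libraries, and the one HSC value above 0 came from P216L replicate 2 (edgeR adjusted p = 0.00168). Of the 10 interferon ligand genes on the list, Ifna2 was at 4.71 CPM in HSC P216L replicate 3 and at 0 in all other libraries, and Ifnb1 was at most 0.364 CPM. The receptor subunits Ifnar1 and Ifnar2 measured 22.1 to 38.2 CPM (median 25.5) and 46.6 to 69.4 CPM (median 56.7) in MEP and 0 to 311 CPM (median 28.2) and 0 to 229 CPM (median 11.2) in HSC. Neither passed (edgeR adjusted p = 0.654 and 0.952). In the mutant against WT comparisons and in WT alone, 0 of the pathway genes passed.

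In HSC no member passed in any mutant against WT. Of 36 members tested, 0 were called in P216L, S211I and double, where 0.106%, 0.0845% and 0.0739% of all genes were called. At an unadjusted p under 0.05 there were 3, 3 and 4, against 12.9%, 8.15% and 10.5% of all genes. DESeq2 called 2, 1 and 2 members where it called 3.19%, 1.06% and 1.87% of all genes. Voom called 0, 1 and 0, and in S211I, where it called Samd9l, it called 5.73% of all genes. Without the library labelled S211I replicate 2, 0 of 40 members were called in S211I and 4 had an unadjusted p under 0.05. The standard errors of the members on the log2 scale had medians of 2.42, 2.77 and 2.39. In simulated HSC counts with 1 spread for all genes, 0 of 66 genes changed 16-fold in the double mutant were called. Simulated levels were pooled over all HSC libraries, where the deep, MEP-like library labelled S211I replicate 2 weighed most. That result therefore need not hold for the members in the real HSC libraries. The 3 comparisons share the WT libraries.

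Apart from Ifit2, the 3 members with the smallest p-values in each HSC comparison were genes at 0 in all 3 WT libraries. Such genes could pass the low-count filter only through mutant libraries, and the share of all genes at 0 in WT was not computed. Dhx58 also had an unadjusted p under 0.05 in double but was lower there. It was at 443, 0 and 64.5 CPM in WT and at 0, 0 and 1.33 in double (edgeR adjusted p = 0.468). Samd9l was at 0, 339 and 94.1 CPM in P216L, 44.9, 214 and 15.995 in double, 38.5 in S211I replicate 1 and 44.8 in the library labelled S211I replicate 2. Against the floor of 3 counts over the WT group these means were at least 50.1-fold higher in P216L, 14.5-fold in S211I and 31.8-fold in double. The floor covers counting error only, so these folds set no lower limit on a difference between genotypes. By edgeR the adjusted p was 0.304, 0.599 and 0.468. The S211I mean holds both of its libraries, and replicate 1 alone gave at least 13.4-fold. Of the 8 mutant libraries 1 was at 0. The same gene was above 0 in every MEP library.

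Gbp3, a guanylate-binding GTPase, was at 729, 0 and 0 CPM in P216L, 0, 75.8 and 63.5 in double, 74.7 in S211I replicate 1 and 6.47 in the library labelled S211I replicate 2, and at 0 in WT. The P216L value rested on replicate 1, and without it all libraries of that group were at 0. The bounds on the group means, in which each library weighs the same, were 84.4-fold in P216L, 14.1-fold in S211I and 16.1-fold in double. They too cover counting error only, and edgeR gave adjusted p = 0.299, 0.599 and 0.468. The S211I bound and test hold both libraries, and replicate 1 alone gave at least 25.9-fold. Rtp4, a chaperone induced by interferon, was at 0, 32.2 and 22.3 CPM in P216L, 21.2, 187 and 10.2 in double, 156 in S211I replicate 1 and 13 in the library labelled S211I replicate 2. Its bounds were 6.32-fold, 29.4-fold and 25.3-fold for P216L, S211I and double, with adjusted p = 0.39, 0.599 and 0.468, and S211I replicate 1 alone gave at least 54.2-fold. Ifit2, which binds viral RNA, ran the other way in P216L with 0 in all 3 libraries, against 284, 0 and 0 in WT (adjusted p = 0.372), so the WT value rested on replicate 1.

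Other members in HSC also turned on single libraries. HSC double replicate 2 had Ifit1 at 75.8, Ifit3 at 135, Oas2 at 21.7, Oas1a at 81.2 and Mx1 at 13.5 CPM. Of these 5 genes, too low to be tested in HSC, the highest value in any other HSC library but the one labelled S211I replicate 2 was 6.61 CPM for Oas1a in WT replicate 1, and Ifit1 and Ifit3 stood at 4.89 and 4.89 CPM in double replicate 3. These genes were picked because they were high there. In the same library Ifit2, Oas3, Oasl1, Eif2ak2, Dhx58 and Mx2 were at 0, and Usp18 and Ifih1 were at 2.71 and 2.71 CPM. At its depth 3 counts were 8.12 CPM, so low values and zeros there say little. It was the highest HSC library for 6 of the 36 members tested (16.7%), and for 10% of all genes tested. The library had the highest T and NK marker sum of the 10 HSC libraries, 823 CPM. Most of that sum was Klrb1c at 631 CPM, with Nkg7 at 103, Lck at 89.3, and Cd3e and Cd3d at 0. Its neutrophil marker sum was 2404 CPM and its B cell marker sum 0. The part of these markers in the values was not tested.

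The transcription factors show how far the libraries of one HSC group lay apart. Irf1 was at 39.7, 51.2 and 16.7 CPM in WT, 0, 0 and 75.3 in P216L, 115 in S211I replicate 1 and 160.3, 313 and 68.4 in double, and at 12.1 in the library labelled S211I replicate 2. Irf9 was at 522, 109.7 and 346 CPM in WT, 581, 131 and 65.9 in P216L, 382 in S211I replicate 1 and 61.6, 83.9 and 55.5 in double, and at 88.3 in the library labelled S211I replicate 2. Stat2 was at 6.61, 146 and 66.6 CPM in WT, 490.1, 193 and 0 in P216L, 462 in S211I replicate 1 and 66.05, 114 and 35.5 in double, and at 55.6 in the library labelled S211I replicate 2. Double lay above WT for Irf1 and below WT for Irf9, and P216L overlapped WT for all 3 genes. For double the log2 fold changes were 2.59 ± 2.27 (SE), adjusted p = 0.904 for Irf1 and -1.99 ± 1.46 (SE), adjusted p = 0.768 for Irf9.

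In HSC WT, Irf7 was at 0, 197 and 135 CPM, in P216L at 0, 0 and 23.5 and in double at 71.97, 73.1 and 59.5. Ifitm2 was at 641, 953 and 689 CPM in WT, 281, 491 and 116 in P216L, 341, 287 and 203 in double, 570.1 in S211I replicate 1 and 221 in the library labelled S211I replicate 2. Its log2 fold changes of -1.23 ± 0.91 (SE), -0.72 ± 1.03 (SE) and -1.20 ± 0.91 (SE) in P216L, S211I and double did not pass (edgeR adjusted p = 0.665, 1 and 0.797). Ifi35, an interferon-induced protein, was at 145, 156 and 208 CPM in WT, 22.2, 13.1 and 7.06 in P216L, 108, 0 and 59.98 in double, 136 in S211I replicate 1 and 70.5 in the library labelled S211I replicate 2. Its log2 fold changes were -3.55 ± 2.33 (SE), -0.49 ± 2.38 (SE) and -1.30 ± 2.13 (SE) (edgeR adjusted p = 0.551, 1 and 1). Every mutant library lay below every WT library for both genes, which were named after their values were seen. Of the 36 members tested, 2, 4 and 4 lay wholly below WT in P216L, S211I and double, where 4.69%, 6.13% and 3.93% of all genes did. Zbp1, Gbp3, Samd9l and Rtp4 lay wholly above WT in S211I with both its libraries, and Irf1, Cmpk2, Samd9l and Rtp4 in double. All of these but Irf1 and Cmpk2 were at 0 in every WT library, and the share of all genes wholly above WT was not computed. Ifitm1 and Ifitm3, the members most distinct between cell types, had log2 fold changes of -0.62 ± 1.40 (SE) and 0.34 ± 1.11 (SE) in P216L and 0.01 ± 1.40 (SE) and -0.08 ± 1.11 (SE) in double.

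In MEP no member passed either, with standard errors on the log2 scale whose medians were 0.27, 0.29 and 0.27 in P216L, S211I and double. Of 38 members tested, 0 were called in P216L, S211I and double against WT, where 0%, 0% and 0.102% of all genes were called. At an unadjusted p under 0.05 there were 8, 5 and 4 members (21.1%, 13.2% and 10.5%), where 5.12%, 4.74% and 5.24% of all genes passed, and DESeq2 called 0 in each. Positive log2 fold changes were seen in 29 of 38 members in P216L, 28 in S211I and 21 in double, against 51.3%, 50.5% and 51% of all genes. The median log2 fold changes were 0.30, 0.31 and 0.04, and those of all genes 0.01, 0.00 and 0.01. The 3 comparisons share 2 WT libraries. Without MEP WT replicate 1 the unadjusted count was 3 in P216L and 0 in S211I, with medians of 0.21 and 0.16, and without MEP WT replicate 3 it was 12 and 13. Every mutant library lay above both WT libraries for 15, 18 and 7 of the 38 members in P216L, S211I and double (39.5%, 47.4% and 18.4%), where this was so for 10.7%, 21.8% and 13.8% of all genes. In simulated MEP counts with 1 spread for all genes, 43 of 67 genes changed 2-fold in the double mutant were called. Of those changed 4-fold, 64 of 67 were called, and there were 6 false calls. The changed genes were drawn from all genes tested, and the standard errors of the members in double reached 1.24. These shares need not hold for the members.

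**Figure D4:**
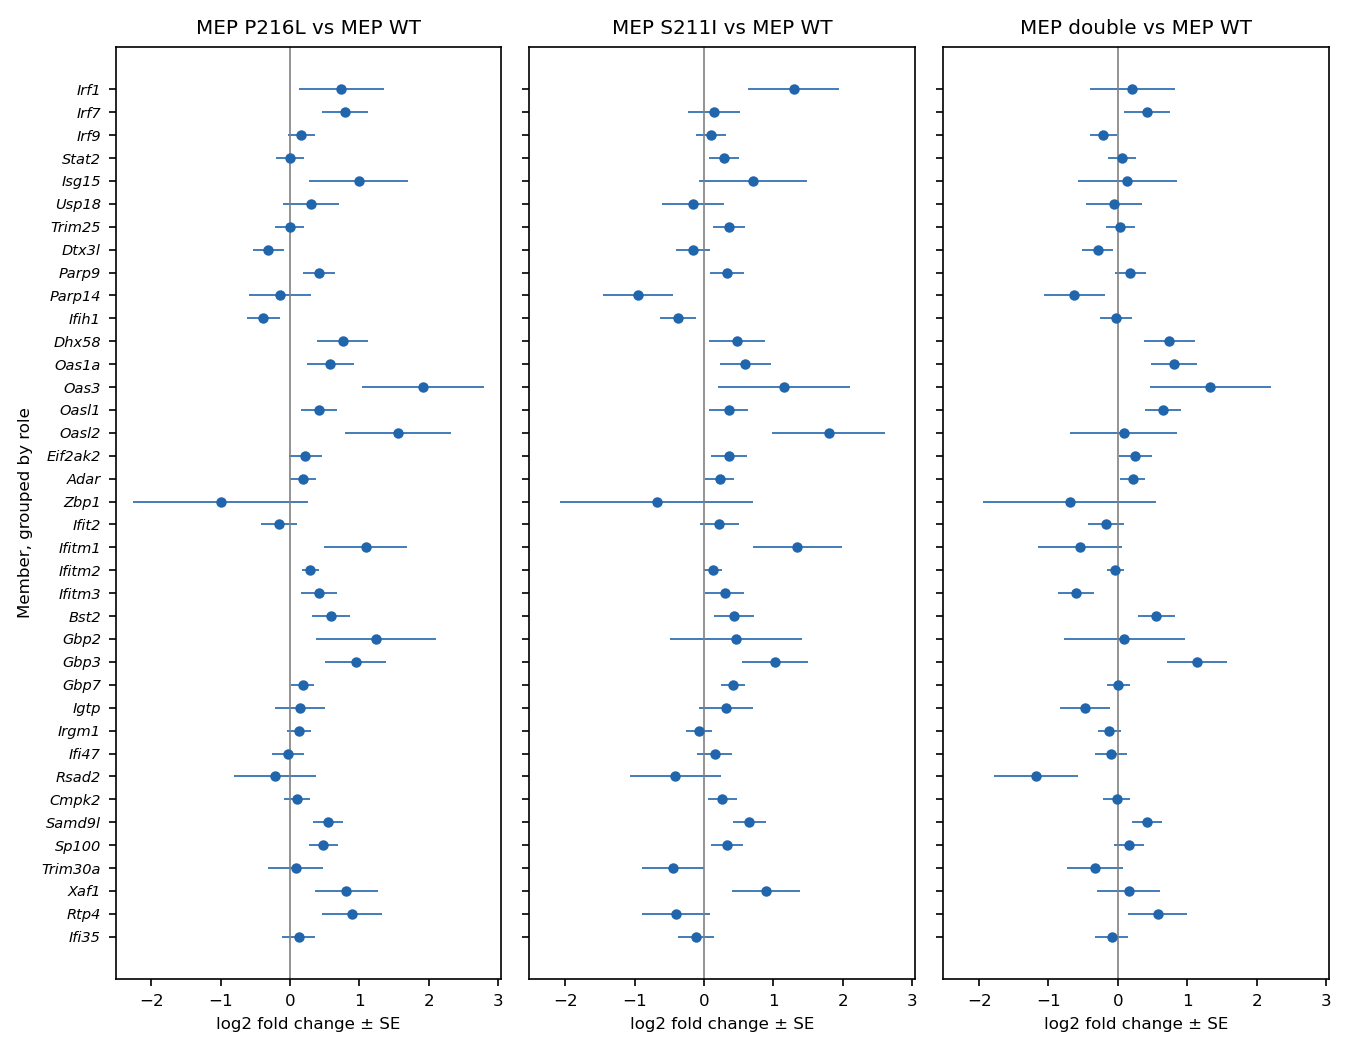
log2 fold change against MEP WT for the 38 members tested in MEP P216L, S211I and double, grouped by role, with bars of 1 SE. Points lie right of 0 for 29, 28 and 21 of 38 members, and none passed the adjusted threshold.

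Samd9l had the smallest p-value in both single mutants. It was at 25.6 and 44.9 CPM in WT, 59.3 and 55.7 in S211I, 56.4, 55.6 and 46.3 in P216L and 53.7, 52.03 and 39.5 in double. The P216L and S211I libraries all lay above both WT libraries, which themselves differed widely. The log2 fold changes were 0.55 ± 0.22 (SE) and 0.65 ± 0.23 (SE), with edgeR adjusted p = 0.976 and 0.939. Over 11 and 10 alternatives these values were 0.23 to 1.01 and 0.33 to 1.12.

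In P216L the next were Ifitm2 and Irf7. Ifitm2 was at 209 and 219 CPM in WT and 269, 244 and 285 in P216L, a log2 fold change of 0.29 ± 0.12 (SE), adjusted p = 0.976. Irf7 was at 12.9 and 16.3 CPM in WT and 40.5, 17.1 and 18.9 in P216L, a log2 fold change of 0.79 ± 0.34 (SE), adjusted p = 0.976. For Irf7 replicate 1 of P216L stood far above the rest.

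In S211I the next were Gbp7 and Oasl2. Gbp7, a guanylate-binding GTPase, was at 53.4 and 68.8 CPM in WT and 82.3 and 85.9 in S211I, a log2 fold change of 0.42 ± 0.18 (SE), adjusted p = 0.939. Oasl2 was at 0.519 and 1.81 CPM in WT and 6.54 and 2.37 in S211I, a log2 fold change of 1.80 ± 0.81 (SE), adjusted p = 0.939. The S211I libraries lay above both WT libraries in each, by little for the second S211I value of Oasl2.

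In double the leading members were Gbp3, Oasl1 and Oas1a. Gbp3 was at 2.59 and 4.45 CPM in WT and 7.91, 8.73 and 7.44 in double, a log2 fold change of 1.14 ± 0.44 (SE), adjusted p = 0.891. Oasl1 was at 22.3 and 18.1 CPM in WT and 33.5, 32.5 and 29.9 in double, a log2 fold change of 0.65 ± 0.26 (SE), adjusted p = 0.933. Oas1a was at 9.68 and 7.06 CPM in WT and 13.3, 14.6 and 15.8 in double, a log2 fold change of 0.80 ± 0.33 (SE), adjusted p = 0.94. The double libraries lay above both WT libraries for each, as they did for 13.8% of all genes. Gbp3 was also at 5.05 and 10.01 CPM in S211I and 6.303, 9.84 and 4.72 in P216L.

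Of the transcription factors, Irf9 was at 57.7 and 73.1 CPM in WT, 80.03 and 64.5 in S211I, 91.02, 73.9 and 56.98 in P216L and 57.8, 53.4 and 60.6 in double. Stat2 was at 34.4 and 33.5 CPM in WT, 34.6 and 50.6 in S211I, 37.1, 35.8 and 29.5 in P216L and 34.2, 37.5 and 34.8 in double. The P216L and double libraries overlapped WT for both genes, and S211I lay above WT for Stat2 by little in replicate 1. Irf1 was at 0.864 and 6.595 CPM in WT, 14.01 and 5.83 in S211I, 8.06, 8.76 and 2.66 in P216L and 5.197, 4.5 and 4.19 in double, with a wide spread in WT itself. For these 3 genes the edgeR adjusted p was 0.972, 0.939 and 0.939 in S211I, 0.984, 0.999 and 0.984 in P216L, and 0.999, 0.999 and 0.999 in double.

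Isg15 stayed at a few CPM in every MEP library, at 2.07 and 0.989 CPM in WT, 2.43 and 2.55 in S211I, 3.91, 2.11 and 2.95 in P216L and 1.87, 1.62 and 1.49 in double. Usp18 was at 15.04 and 11.5 CPM in WT, 7.85 and 16.4 in S211I, 27.7, 10.6 and 10.04 in P216L and 10.8, 11.8 and 15.4 in double. For Usp18 P216L replicate 1 lay above both WT libraries and P216L replicates 2 and 3 below both, while double and S211I overlapped WT. Sp100 was at 32.6 and 54.1 CPM in WT, 54.4 and 58.99 in S211I, 72.7, 53.1 and 59.3 in P216L and 51.8, 55.4 and 41.1 in double, and WT replicate 1 was the lowest of the 10.

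The enzymes that act on double-stranded RNA had narrow ranges in MEP. Eif2ak2 was at 16.3 and 17.9 CPM in WT, 23 and 22.2 in S211I, 19.5, 22.4 and 18.6 in P216L and 23.5, 21.2 and 17.2 in double. Adar was at 49.1 and 50.4 CPM in WT, 60.6 and 58.8 in S211I, 64.5, 63.96 and 42.2 in P216L and 59.99, 56.7 and 58.3 in double. S211I lay above WT for both genes, double above WT for Adar and P216L above WT for Eif2ak2, and the other groups overlapped WT. Bst2 was at 16.9 and 14.3 CPM in WT, 23.4 and 19.7 in S211I, 19.04, 23.7 and 29.2 in P216L and 18.5, 29.8 and 20.4 in double. Every mutant library lay above both WT libraries for Bst2, with edgeR adjusted p = 0.976, 0.939 and 0.951 for P216L, S211I and double.

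Of the MEP libraries, P216L replicate 1 stood out for this set, and it was singled out after the values were seen. It was the highest of the 10 for 15 of the 38 members tested (39.5%), where it was the highest for 7.73% of all genes tested. For 13 members it lay over 1.5 times the median of the other 9 MEP libraries, against 5.37% of all genes, and no other MEP library did so for more than 7 members. Irf7 was at 40.5 CPM there and at most 24.7 in the other 9, Usp18 at 27.7 and at most 16.4, and Rtp4 at 17.4 and at most 10.5. Irf9 was at 91.02 and at most 80.03, and Isg15 at 3.91 and at most 2.95.

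Ifitm1, Ifitm2, Ifitm3 and Stat2 were not highest in that library. Its marker sums lay within the range of the other 9 MEP libraries for every list: 74.6 CPM for plasmacytoid and dendritic cells against 59.8 to 105, 4.46 for monocytes against 2.70 to 12, 31.4 for neutrophils against 2.94 to 159 and 13.7 for T and NK cells against 5.54 to 20.1. Without it, 24 of 38 members had a positive log2 fold change in P216L against WT, the median was 0.20, and 2 members had an unadjusted p under 0.05.

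**Figure D5:**
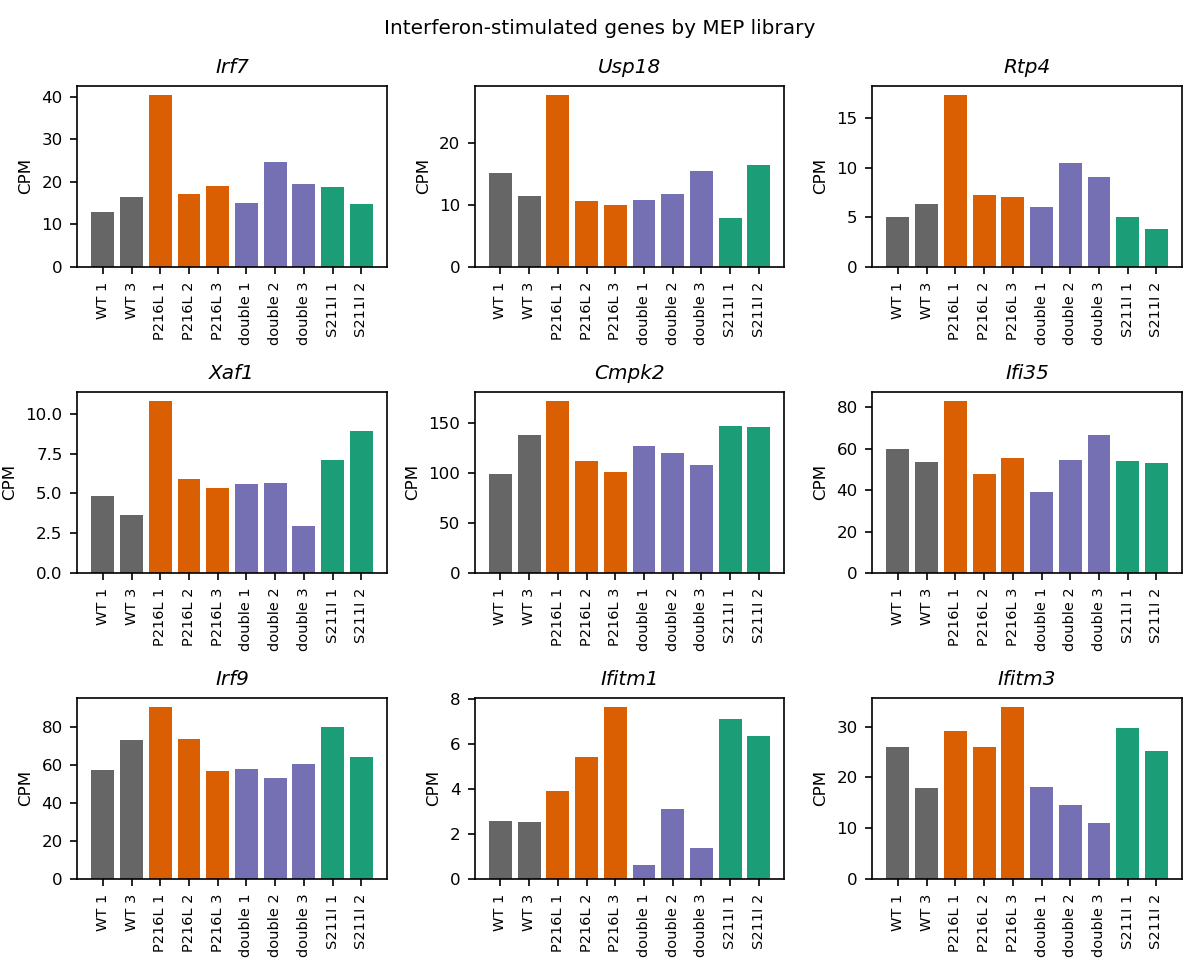
CPM of 9 interferon-stimulated genes in each of the 10 MEP libraries, with bars from 0 coloured by genotype. P216L replicate 1 has the tallest bar for Irf7, Usp18, Rtp4, Xaf1, Cmpk2, Ifi35 and Irf9, and the double mutant has low bars for Ifitm1 and Ifitm3.

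The double mutant was compared with S211I in MEP, a comparison that asks what P216L adds on that background. Of 38 members 0 were called where 0.139% of all genes were, 6 had an unadjusted p under 0.05 (15.8%) where 7.62% of all genes did, and DESeq2 called 0. Ifitm3 was at 18.1, 14.5 and 10.96 CPM in double and 29.7 and 25.1 in S211I, a log2 fold change of -0.91 ± 0.26 (SE), adjusted p = 0.347. Ifitm1 was at 0.624, 3.12 and 1.35 CPM in double and 7.11 and 6.37 in S211I, a log2 fold change of -1.89 ± 0.59 (SE), adjusted p = 0.415. Every double library lay below both S211I libraries for each, as for 14 of the 38 members (36.8%) and for 17% of all genes, and over the alternatives the values were -1.07 to -0.75 and -2.67 to -1.55, with 0 of 11 passing for each. Ifitm3 was at 25.9 and 17.9 CPM in MEP WT and 29.1, 25.98 and 33.9 in P216L, and Ifitm1 at 2.59 and 2.56 in WT and 3.91, 5.44 and 7.68 in P216L. Of the 38 members 13 were positive, with a median of -0.15, against 50.4% of all genes and 0.00.

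Whether a mutant's effect differed between the cell types was tested as an interaction. Of 41 members 0 were called for P216L and 0 for double, where 0.0997% and 0.0166% of all genes were called. At an unadjusted p under 0.05 there were 5 and 6, against 16.2% and 15.2% of all genes, and voom called 0 and 0. DESeq2 called 3 (Gbp3, Ifi35 and Samd9l) and 4 (Dhx58, Gbp3, Rtp4 and Samd9l), which are 7.32% and 9.76% of the members, where it called 7.83% and 5.64% of all genes. Samd9l had the smallest p-value in both, with log2 differences of -11.43 ± 3.40 (SE) and -10.83 ± 3.44 (SE) and edgeR adjusted p = 0.187 and 0.212. These fitted values depend on HSC WT, where it was at 0, and for P216L the gene was called without HSC P216L replicate 1.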

How the data were processed

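RNA was measured in 21 libraries prepared with NucleoSpin RNA XS and SMART-Seq v4 Ultra Low Input kits, per the labels' protocols. The authors deposited 1 table of estimated counts per Entrez gene, and the submitters' processing notes name FastQC, Salmon and the GRCm39 assembly, with versions not given in the sources used here. Symbols came from RefSeq (GRCm38.p6) for 30211 of 30519 genes, and 0 sample columns were left out. CPM is the estimated count scaled to a library total of 1000000. Counts were rounded for tests, and genes with near-identical copies (Ifitm, Oas1, Gbp, Ifit, Mx and Trim30 families) are uncertain, since estimation can split their reads.

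HSC and MEP were fitted apart and jointly for comparisons across them with edgeR 4.0.16 (limma 3.58.1, R 4.3.3): TMM factors, filterByExpr (minimum count 10, minimum total 15), robust quasi-likelihood tests and Benjamini-Hochberg adjustment over all 9471, 10773 and 12036 genes. The biological coefficient of variation was 1.6 in HSC, 0.174 in MEP and 1.06 jointly, and the joint fit gives both cell types 1 spread per gene. SE is the log2 fold change divided by the root of the F statistic. Floors are 3 counts over the summed libraries of a group at 0, set against the plain mean CPM of the other group. They cover counting error only. Fits were tested on simulated counts. Alternatives were RLE factors, no low-count filter, DESeq2 1.42.0, voom quality weights, a replicate block, thinning, fits of only the groups compared, leaving out each library, leaving out the library labelled HSC S211I replicate 2, and, added after the data were seen, cell type alone.

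Members, lists and tests were chosen with earlier results of these data known. Members named with values were those past adjusted p 0.05 in any comparison, the 3 with the smallest p in each mutant against WT, and Irf1, Irf7, Irf9, Stat2, Isg15, Usp18, Ifitm1, Ifitm2, Ifitm3, Bst2, Adar, Eif2ak2 and Sp100 by role. Any other member named was chosen after its values were seen. The pathway list held 50 genes, with Ifnar1, Ifnar2 and those past the threshold named, except 1 gene that is not reported here.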

Additional observations from a re-analysis of the deposited data

How the results depend on the processing

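The counts of members called stayed at 0 in MEP for each mutant against WT and for double against S211I under every alternative run. DESeq2 called 2, 1 and 2 members in HSC P216L, S211I and double (302, 100 and 177 of all genes), 16 in MEP against HSC (3188 of all), 9 in MEP WT against HSC WT (2160 of all), and 3 and 4 for the P216L and double effects between cell types (943 and 679 of all). Voom called 1 in HSC S211I (543 of all) and 13 in MEP against HSC (5309 of all). In MEP WT against HSC WT, where 2 members passed, RLE gave 1, thinning 1, no filter 0 and a fit of only the 2 groups 0. With 1 library left out the counts were 2 to 12 in MEP against HSC (2 without MEP WT replicate 1, 3 without MEP WT replicate 3, 12 without HSC P216L replicate 3), 0 to 1 in MEP WT against HSC WT, and 0 to 1 for the P216L effect between cell types. The causes were not tested.

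Same-numbered libraries of different genotypes were compared within each cell type. Their deviations correlated at r = -0.07 to 0.25 over 15 HSC pairs, 1 of them over 0.1, and -0.09 to 0.03 over 12 MEP pairs. HSC and MEP libraries of the same genotype and number were not compared, so whether the numbers pair the samples was not settled. With the replicate block 7 members passed in MEP against HSC, 1 in MEP WT against HSC WT and 0 in each mutant comparison.

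Single genes turned sign as follows, on the log2 scale. In HSC P216L against WT, Gbp3 was 0 without P216L replicate 1 and Ifit2 was 0 without WT replicate 1, since all libraries left were at 0. With 1 library left out, Gbp3 was 0 to 11.98, Ifit2 -10.58 to 0, and in MEP against HSC Irf1 was -3.70 to 0.18 and Irf7 -0.89 to 2.02 (both highest without HSC P216L replicate 3), Isg15 -2.03 to 0.48 (highest without HSC P216L replicate 2), Usp18 -1.14 to 2.24 and Adar -0.27 to 3.77 (both highest without HSC WT replicate 1). Voom gave 0.14 for Irf7, 0.25 for Stat2, 2.37 for Usp18 and 2.22 for Adar, and leaving out the library labelled HSC S211I replicate 2 gave 0.12 for Adar. The cause was not tested. In HSC 38 of 44 members were at 0 in at least 1 of 10 libraries, and with all libraries thinned to 151215 counts the HSC libraries had 16 to 34 members above 0 and the MEP libraries 26 to 32.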
